A study of Danio rerio with 15 samples.

Results

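The transcripts described here are those whose genomic span, the distance from the first to the last base of their annotated exons, is 200000 bp or more. They were chosen by span alone, on chromosomes 1 to 25 of the Zv9 assembly, and without the transcripts of chromosome 4 that start at or beyond base 28000000, where 5 of 399 otherwise eligible transcripts were left out. This left 394 of the 30279 transcripts in the tables, or 1.38% of the 28486 transcripts under the same chromosome rule. The other 28092 are called shorter transcripts below.

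Long vertebrate genes owe their size mainly to introns, which are transcribed and then removed, so that the mature RNA is only a small part of what the polymerase has read. A polymerase needs longer to reach the end of such a gene than to copy a short gene. In the vertebrate brain, many very long genes encode adhesion molecules, receptors and channels of neurons and glia. Which of these genes are among the 394 transcripts could not be told here, because the tables list transcript identifiers and 0 of them matched a gene name. Transcripts are therefore given by their Zv9 position.

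The study compared radial glia, the neural stem cells of the zebrafish brain, with and without the receptor Notch3, and adult progenitors in different states. The larval libraries (3 notch3+/+ and 3 notch3-/-) came from eGFP-positive cells sorted from heads without eyes at 7 dpf, with 15 heads pooled in each library. All these larvae carried the Gfap:egfp reporter, in which a glial promoter drives eGFP, and the mutants were homozygous for the null allele notch3fh332. The adult libraries came from telencephali of 3-month-old her4:drfp;mcm5:egfp fish, 20 pooled in each library, in which her4 drives a red protein in radial glia and mcm5 a green protein in cycling cells. Quiescent radial glia (qRG, 3 libraries) were positive for RFP alone, activated radial glia (aRG) for both proteins and activated non-glial progenitors (aNP) for GFP alone. The names of the 6 columns that are not qRG did not settle which are aRG and which aNP, so they are treated as 1 group of activated progenitors and given the letters a to f. Neither the sorted cell types nor the level of notch3 could be checked, since both need gene names. Each library comes from a pool of animals. The larval fit held the replicate number as a block, so larval p-values measure how the difference between mutant and wild-type pools varied between replicates. The paper describes 3 independent experiments of 20 pooled telencephali for the adult sorts, so qRG, aRG and aNP libraries may share pools. The 6 activated columns hold both aRG and aNP, so adult p-values measure the spread between libraries together with differences between these cell types. For them, n = 6 counts columns and not independent pools.

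The larval libraries held 17776468 to 37653792 counted reads, the qRG libraries 45607676 to 49601032 and the activated libraries 19555038 to 66966289. Activated columns c, d and f stood apart from the other 12 libraries. The lower quartile of level over the shorter transcripts was 1.52 to 2.18 counts per 1000000 counts (CPM) per kb of Length in these 3 columns and 0.231 to 0.346 in columns a, b and e, where Length is the summed exon length deposited with the counts. In c, d and f, 29361 to 29424 transcripts had at least 1 read, compared with 26487 to 27819 in a, b and e. Columns c, d and f were also the shallowest adult libraries, with 35905596, 19555038 and 25395275 counted reads. Columns a, b and e held 59570154 to 66966289. A relation between depth and level was not tested. Columns c, d and f are called the columns of flat level, and adult results are given with and without them. The activated columns carry 2 names, 3 columns each, and 1 column of each name was most similar to a column of the other name, so the names may be mixed up, which was not tested. Each of c, d and f was most similar to another of these 3, and likewise for a, b and e. Results without c, d and f may thus compare qRG with 1 cell type alone. This cannot be told apart from leaving out libraries of another quality or depth.

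The span of the long transcripts ran from 200256 to 810533 bp, with a median of 254658 bp. It was 300000 bp or more in 123 transcripts and 500000 bp or more in 21. Their mature RNA was also longer than that of the shorter transcripts, with a median Length of 3947 against 1590.5 bases and a median of 17 against 6 exons. Exons made up only a median 1.44% of the span, compared with 16.3% for the shorter transcripts. The long span was thus mostly intron, as the choice by span favours.

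The size of the introns varied widely among the long transcripts. The largest intron of each measured 15161 to 677618 bp, with a median of 97570 bp, and 343 of the 394 had an intron of at least 50000 bp. This largest intron took up a median 36.3% of the span, close to the 32.2% of the shorter transcripts. It covered 50% of the span or more in 108 long transcripts and 90% or more in 10. It was the first or second intron in 57.4% of the long transcripts and 57.7% of the shorter ones. Over transcripts with at least 3 introns these shares were 56.4% (of 385) and 45.8% (of 19943). At the extremes stood chr20:26125137-26389041, with 144 exons over 263904 bp and a Length of 26957 bases, and 3 transcripts of 2 exons, the longest of them chr5:54233151-54641275.

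The long transcripts lay on both strands (210 on the minus strand) and on every one of the 25 chromosomes. Their share of the eligible transcripts was lowest on chromosome 5 (0.476%, 8 of 1682) and highest on chromosome 14 (2.28%, 21 of 923). Within the spans of 105 of them lay 269 other annotated transcripts, up to 18 in 1 span, and 129 of the 269 were on the same strand. Exons of 28 long transcripts (7.11%) overlapped those of another transcript, compared with 8.84% of the shorter ones. For these, reads on the shared bases cannot be assigned with certainty to 1 transcript. Overlaps on either strand were included, as the counting used no strand.

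Long transcripts were widely expressed in larval radial glia. Their median level, in CPM per kb of Length, was 4.20, 3.61 and 4.31 in notch3+/+ replicates 1, 2 and 3, and 4.60, 4.75 and 4.34 in notch3-/- replicates 1, 2 and 3. The lowest notch3-/- library was above the highest notch3+/+ library, by 4.34 to 4.31, so that the groups barely separated on this measure. For shorter transcripts in the same bins of Length, the medians of the bins were averaged, weighted by the number of long transcripts in each. This level was 3.39 ± 0.256 (SD, n = 3) CPM per kb in wild type and 3.39 ± 0.135 (SD, n = 3) in the mutant. The ratio of long to shorter transcripts sets a median over all bins against this average, so 1 does not strictly mark equal levels. It was 1.20 ± 0.190 (SD, n = 3) in wild type, as against 1.35 ± 0.0457 (SD, n = 3) in the mutant. The groups overlapped, since notch3+/+ ranged from 0.982 (replicate 2) to 1.32 (replicate 1) and notch3-/- from 1.304 to 1.395. The wild-type ratio fell below 1 without division by Length (0.952) and for spans of 100000 bp or more (0.935). In these sorted bulk libraries, fewer cells of a type and less RNA per cell cannot be told apart.

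In the adult libraries the median level of the long transcripts was below the averaged level of shorter transcripts of the same Length. Their median level was 3.51, 3.90 and 4.32 CPM per kb in qRG replicates 1, 2 and 3, and between 2.61 and 3.77 in the activated libraries (mean 3.15 ± 0.380, SD, n = 6). The ratio to shorter transcripts of the same Length was 0.905 ± 0.0638 (SD, n = 3) in qRG and 0.773 ± 0.111 (SD, n = 6) in activated progenitors. The columns of flat level had ratios of 0.791 to 0.904 and the other activated columns 0.635 to 0.792, so that the lowest qRG library (0.852) lay above every activated column but d and f. The long transcripts held 1.25%, 1.81% and 1.80% of the counts in qRG replicates 1, 2 and 3 and 1.36%, 1.69% and 1.86% as the lowest, median and highest activated library, and these groups overlapped. In qRG replicate 1, the 10 most abundant transcripts took 11.1% of the counts, compared with 7.82% and 7.93% in the other qRG libraries. Age, tissue, sort and read length differed between the larval and adult libraries, and no test was made between them.

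The spread of levels among the long transcripts was narrow in the columns of flat level. In columns c, d and f the lower quartile was 2.0 to 2.69 CPM per kb and the upper quartile 4.23 to 6.02. In a, b and e these quartiles were 0.822 to 1.18 and 8.75 to 10.96. Of the 394 long transcripts, 383 to 389 reached 1 CPM per kb in the columns of flat level and 275 to 302 in the others, while 21 to 53 reached 10 CPM per kb in the former and 91 to 108 in the latter. The levels of the long transcripts thus lay closer together in c, d and f than in a, b and e.

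**Figure D1:**
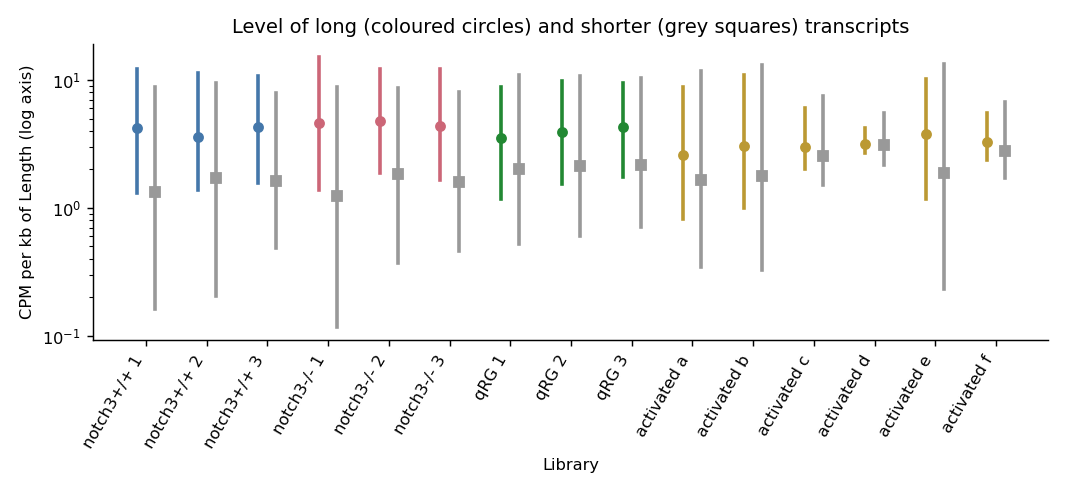
Level in CPM per kb of Length (log axis) in each of the 15 libraries, with the median as a point and quartile 1 to quartile 3 as a line, for the 394 long transcripts (coloured circles) and the shorter transcripts (grey squares). The range is short in activated columns c, d and f, where the lower quartile of the long transcripts is 2.0 to 2.69.

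Most of the long transcripts reached 1 CPM per kb both in larval wild-type radial glia and in adult qRG. With the mean over notch3+/+ and over qRG libraries, 309 of the 394 reached 1 CPM per kb in both, 12 in notch3+/+ only, 32 in qRG only, and 41 in neither. The log2 levels in the 2 groups had a Pearson r of 0.849 and a Spearman rho of 0.850 over the 394 transcripts, which share libraries and are not independent replicates. The same counts and correlations were not computed over shorter transcripts, so they are not shown to be particular to the long ones.

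The highest larval levels per kb belonged to chr4:22817287-23054090, chr6:30543718-30875026 and chr15:29805601-30114108. The transcript on chromosome 4 was counted at 1610, 1435 and 1351 CPM in notch3+/+ replicates 1, 2 and 3 and at 1570, 1509 and 1275 CPM in notch3-/- replicates 1, 2 and 3. Its groups overlapped, and its log2 difference was -0.02 (SE 0.08). In adults it was counted at 1054, 1017 and 976 CPM in qRG replicates 1, 2 and 3, within the range of the activated libraries (459, 1064 and 2825 CPM as lowest, median and highest). This transcript, the highest per kb in larvae, thus showed no separation of groups in either comparison. The transcript on chromosome 6, whose exons overlap another transcript, was at 635, 579 and 579 CPM in notch3+/+ and 713, 546 and 833 CPM in notch3-/-. The transcript on chromosome 15 was at 364, 319 and 372 CPM in notch3+/+ and 456, 412 and 392 CPM in notch3-/-. Its groups did not overlap, but its log2 difference of 0.26 (SE 0.11) did not pass edgeR's quasi-likelihood test (adjusted p = 0.569, Benjamini-Hochberg).

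The 3 longest spans were chr1:42607716-43418249, chr3:37819050-38620722 and chr19:45874989-46606132. The first, of 810533 bp, was counted at 41.2, 33.3 and 27.8 CPM in notch3+/+ and at 70.4, 45.6 and 23.6 CPM in notch3-/- replicates 1, 2 and 3. The second, of 801672 bp, held the largest intron of all (677618 bp, 84.5% of its span) and was at 6.55, 7.28 and 6.12 CPM in notch3+/+ and 6.12, 5.91 and 9.61 CPM in notch3-/-. The third, of 731143 bp, was at 13.4, 9.60 and 15.5 CPM in notch3+/+ and 7.80, 14.6 and 12.1 CPM in notch3-/-. In all 3 the larval groups overlapped, and so did the adult groups. Their qRG levels were 34.7 to 49.7, 3.47 to 6.04 and 9.02 to 10.7 CPM, against 16.5 to 79.2, 2.47 to 9.11 and 2.25 to 16.3 CPM in activated progenitors.

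The first comparison asked how long transcripts differed between notch3-/- and notch3+/+ larval radial glia. As a group they took more of the library in the mutant. They held 2.14%, 1.93% and 2.28% of the counts in notch3+/+ replicates 1, 2 and 3, and 2.47%, 2.30% and 2.48% in notch3-/- replicates 1, 2 and 3. The groups did not overlap, and each mutant library was above the wild-type library of its number. The share of counts on the 13 transcripts of chromosome M was lower in each mutant library than in the wild-type library of its number, at 4.52%, 4.77% and 3.42% in notch3+/+ and 4.32%, 3.90% and 2.89% in notch3-/-. With those 13 transcripts left out of the fit, the median log2 difference of the long transcripts was 0.215 above that of all tested. Leaving out 13 of 23056 transcripts could hardly move this median, and the shares of counts were not recomputed. A relation between the 2 shares was not tested.

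**Figure D2:**
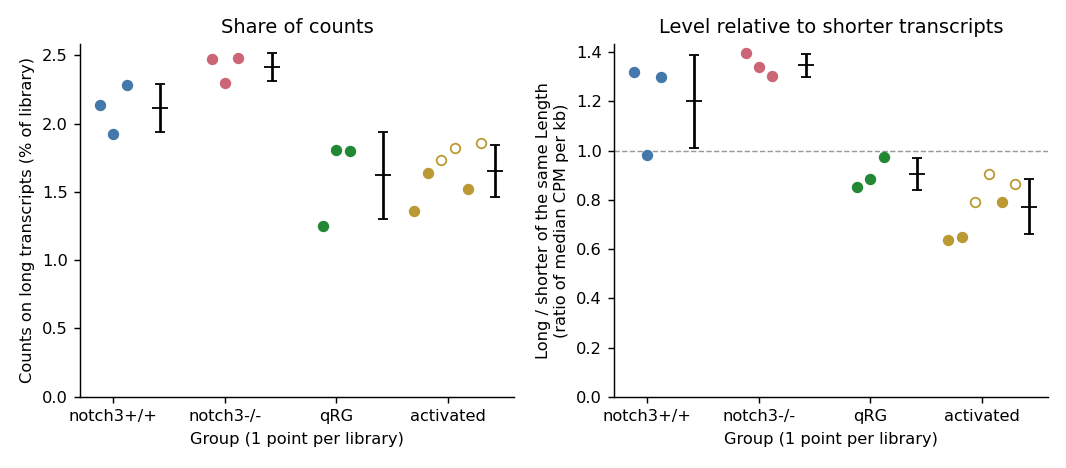
Left, share of each library's counts on the 394 long transcripts (%). Right, ratio of the median CPM per kb of long transcripts to the weighted mean of bin medians of shorter transcripts of the same Length. Each point is 1 library (open points, activated columns of flat level), and bars show the mean and SD of the group. The notch3-/- libraries hold 2.30% to 2.48% and the notch3+/+ libraries 1.93% to 2.28%.

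No single long transcript passed the larval test. Of the 387 tested with edgeR's quasi-likelihood test, 0 had an adjusted p under 0.05, where 0.455% of all 23056 transcripts tested did (0.0824% higher and 0.373% lower in notch3-/-, 19 and 86 transcripts). The other 7 long transcripts had 1 to 40 counts in total and were not tested. At an unadjusted p under 0.05, 54 long transcripts were higher (14.0%, against 3.4% of all tested) and 10 lower (2.58%, against 4.48%), together 64 of 387 (16.5%) where 7.88% of all tested reached this level. DESeq2 with the same block called 6 of 369 (1.63%), beside 1.55% of the 18139 transcripts it gave an adjusted p. Of these 6, 5 were higher (background 0.458%) and 1 lower (background 1.09%).

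The differences of the long transcripts leaned to one side. Their median log2 difference, notch3-/- over notch3+/+, was 0.22, while that of all transcripts tested was 0.003 and that of shorter transcripts in the same bins of abundance and Length was 0.03. It was above 0 for 283 of 387 (73.1%, against 50.3% of all tested and 53.9% of shorter transcripts in the same bins). All mutant libraries were above all wild-type libraries for 47 (12.1%, against 3.73% of all tested and 4.55% in the same bins). All were below for 4 (1.03%, against 3.94% and 3.48%). The long transcripts were thus higher in notch3-/- more often than the background and lower less often, by small amounts, and these shares were not tested. By library, the median log2 deviation of the long transcripts from their larval mean did not overlap between groups. With that of shorter transcripts in the same bins subtracted, it was 0.05, -0.25 and -0.12 in notch3+/+ replicates 1, 2 and 3. In notch3-/- replicates 1, 2 and 3 it was then 0.22, -0.01 and -0.02, and the groups overlapped.

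Taken by replicate number, the median log2 difference of the long transcripts was 0.21, 0.29 and 0.08 in pairs 1, 2 and 3. For shorter transcripts in the same bins it was 0.02, 0.06 and -0.004. Of 387 long transcripts, 262, 272 and 220 were higher in the mutant in these pairs, and 120 (31.0%, against 14.0% of all tested) were higher in every pair, while 26 (6.72%, against 15.0%) were lower in every pair. The third pair was the shallowest and showed the smallest difference. The lower quartile of level over the shorter transcripts, which was raised in the columns of flat level, was 0.162, 0.203 and 0.488 CPM per kb in notch3+/+ and 0.117, 0.371 and 0.456 in notch3-/-. It was lower in the mutant in pairs 1 and 3 and higher in pair 2, the pair with the largest difference of the long transcripts. A relation between this quartile and the long transcripts was not tested.

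The larval difference was larger in the classes of longer span. Its median was -0.04 for transcripts under 10 kb, -0.01 from 10 to 25 kb, 0.03 from 25 to 50 kb, 0.06 from 50 to 100 kb and 0.11 from 100 to 200 kb. Among the long transcripts it was 0.17 from 200 to 300 kb (264 tested) and 0.28 at 300 kb or more (123 tested). The share above 0 went from 46.2% in the first class to 80.5% in the last, and the share higher without overlap from 3.19% to 17.9%. Of the 21 transcripts of 500000 bp or more, 19 had a difference above 0, where 50.3% of all tested did. In 5 of the 21 the mutant libraries were all higher, where this held for 3.73% of all tested. The gradient was thus already present below 200000 bp. The spans just inside the threshold (200256, 200461 and 200630 bp) had log2 differences of 0.65, 0.13 and 0.96, and those just outside (199854, 199955 and 199999 bp) 0.22, 0.52 and -0.04. Over single transcripts the relation was weak, with a rho of 0.0671 between span and log2 difference over the 387 long transcripts and 0.0802 over all 22536 tested under the chromosome rule.

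**Figure D3:**
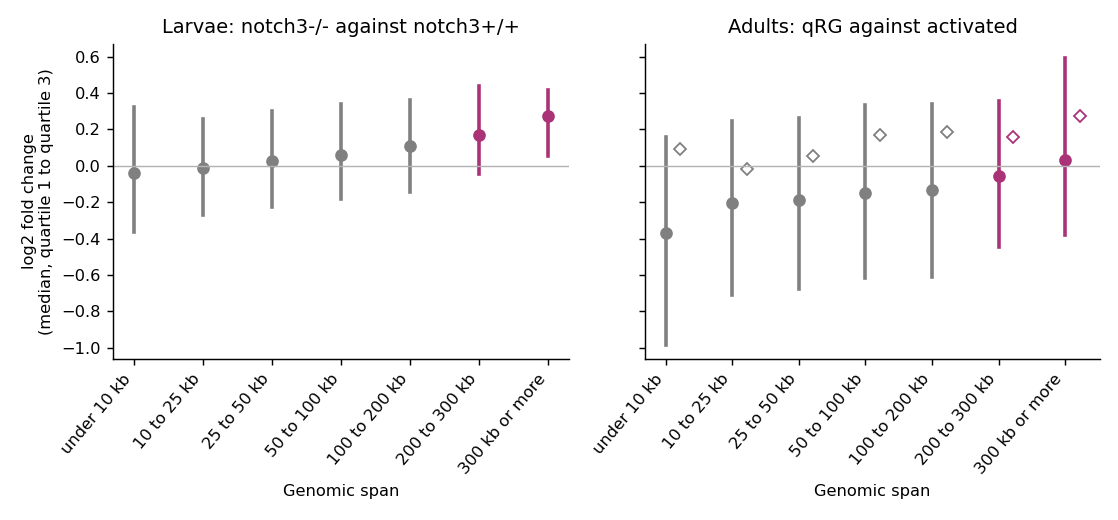
log2 fold change by genomic span, median as a circle and quartile 1 to quartile 3 as a line, for larvae (left, notch3-/- against notch3+/+) and adults (right, qRG against activated progenitors). The 2 classes of long transcripts are coloured, and diamonds on the right give the median without the columns of flat level. The larval median goes from -0.04 under 10 kb to 0.28 at 300 kb or more.

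Other features of the long transcripts did not separate them in the same way. The median larval difference was 0.21 where the largest intron took less than 50% of the span and 0.22 where it took more. It was 0.22, 0.23 and 0.18 with under 12, 12 to 24 and 25 or more exons. It depended more on level, with 0.31, 0.24, 0.23 and 0.10 at a mean log2 CPM under 2, from 2 to 4, from 4 to 6 and of 6 or more. At the same levels the shorter transcripts were at 0.06, -0.01, -0.02 and -0.02, so that the long transcripts were higher in each class of level.

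Among single long transcripts, the lowest larval adjusted p belonged to chr21:42299347-42504376. It was counted at 125, 87.8 and 115 CPM in notch3+/+ replicates 1, 2 and 3 and at 168, 149 and 193 CPM in notch3-/- replicates 1, 2 and 3. Its log2 difference was 0.64 (SE 0.14), with an adjusted p of 0.0617 by edgeR's quasi-likelihood test and 0.0044 by DESeq2. All 3 mutant libraries were above all 3 wild-type libraries. The same held for chr20:5595946-5997430, at 51.1, 25.1 and 42.4 CPM in notch3+/+ and 87.8, 68.0 and 55.5 CPM in notch3-/-, and for chr19:37663206-38223383, at 39.4, 39.3 and 41.6 CPM in notch3+/+ and 56.9, 69.3 and 65.5 CPM in notch3-/-. DESeq2 gave these an adjusted p of 0.0091 and 0.0233, where edgeR's quasi-likelihood test gave 0.102 and 0.151. The other 2 that DESeq2 called higher, chr3:21882606-22102677 and chr25:27788184-28104027, both had a log2 difference of 0.84 and edgeR adjusted p-values of 0.193 and 0.215.

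Few long transcripts were lower in the mutant. The one DESeq2 called, chr3:20547488-20779738, was at 30.5, 34.5 and 32.4 CPM in notch3+/+ and at 7.12, 29.4 and 14.7 CPM in notch3-/- replicates 1, 2 and 3. Its log2 difference was -1.15 (SE 0.31), with an adjusted p of 0.185 by edgeR's quasi-likelihood test and 0.0167 by DESeq2. The groups did not overlap, but notch3-/- replicate 2 lay close to wild type. The other 3 that were lower without overlap had log2 differences of -0.80 (chr8:37148083-37375492), -0.45 (chr18:12104314-12321906) and -0.14 (chr9:14842567-15483544). The extreme log2 differences, 4.04 and -1.75, belonged to transcripts near the limit of detection, at most 1.62 and 0.416 CPM in any larval library.

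The second comparison set qRG against activated progenitors. With edgeR's quasi-likelihood test, 7 of 393 long transcripts (1.78%) had an adjusted p under 0.05, where 0.553% of all 27848 tested did, and all 7 were higher in qRG, the direction of 153 of the 154 calls (0.549% higher and 0.00359% lower). At an unadjusted p under 0.05, 38 were higher (9.67%, against 5.1%) and 10 lower (2.54%, against 3.55%), together 12.2% against 8.65% of all tested. DESeq2 called 12 of 350 (3.43%), beside 2.76% of 16492, with 9 higher (2.57%, against 2.13%) and 3 lower (0.857%, against 0.625%). The 1 long transcript not tested had 9 counts in total. Without the columns of flat level, edgeR called 14 of 387 long transcripts higher (3.62%, against 1.08% of 25275 tested) and 5 lower (1.29%, against 1.3%), and 5 of the 7 were among them.

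The largest difference was that of ENSDART00000081759 at chr24:17020682-17256043, a transcript of 21 exons. It was counted at 323, 283 and 283 CPM in qRG replicates 1, 2 and 3, and at 14.1, 20.5 and 39.2 CPM as the lowest, median and highest activated library. It was higher in qRG by 3.67 on the log2 scale (SE 0.449, adjusted p = 0.000642 by edgeR's quasi-likelihood test), with no overlap. In larvae it was at 102, 76.4 and 114 CPM in notch3+/+ and 144, 82.9 and 134 CPM in notch3-/- replicates 1, 2 and 3, where the groups overlapped.

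ENSDART00000104693 at chr22:35095247-35377777 has 14 exons, and its first intron of 179739 bp makes up 63.6% of the span. It was counted at 125, 186 and 107 CPM in qRG, and at 8.33, 11.9 and 18.3 CPM as the lowest, median and highest activated library. Its log2 difference was 3.48 (SE 0.394, adjusted p = 0.00034 by edgeR's quasi-likelihood test), with no overlap between the groups. In larvae it was at 84.2, 62.1 and 71.0 CPM in notch3+/+ and at 94.1, 41.2 and 69.2 CPM in notch3-/-, with a log2 difference of -0.16 (SE 0.18).

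The other 5 were higher in qRG by 1.93 to 2.51 on the log2 scale, with adjusted p-values of 0.0123 to 0.0261 by edgeR's quasi-likelihood test. The transcript at chr2:34961597-35194948 was at 153, 202 and 114 CPM in qRG and between 17.7 and 50.7 CPM in activated progenitors. At chr12:22651883-22904552 the values were 14.2, 25.1 and 27.2 CPM in qRG and 1.63 to 7.91 CPM in activated progenitors. At chr21:42299347-42504376, the transcript with the lowest larval adjusted p, they were 46.8, 82.4 and 140 CPM in qRG and 10.7 to 28.4 CPM in activated progenitors. In each of these the lowest qRG library was above the highest activated one, though the qRG libraries themselves were far apart at the last. At chr15:6033952-6302800 qRG held 41.3, 53.2 and 54.2 CPM and activated progenitors 6.33 to 15.0 CPM. At chr24:15801850-16040702 qRG held 35.4, 29.6 and 28.5 CPM and activated progenitors 5.74 to 10.6 CPM. None of the 7 had exons overlapping another transcript.

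**Figure D4:**
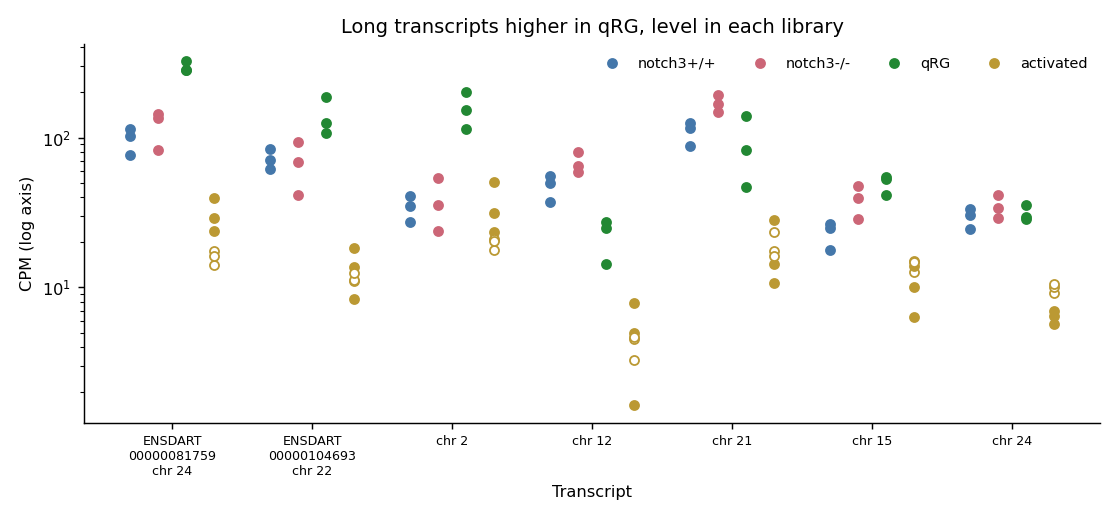
CPM (log axis) in each library for the 7 long transcripts that edgeR called higher in qRG, ordered by log2 fold change and named by chromosome. Each point is 1 library, and open points are the activated columns of flat level. The qRG points lie above all activated points in each, as for the first transcript at 283 to 323 against 14.1 to 39.2 CPM.

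DESeq2 alone called a further 5. One was the most abundant long transcript of qRG per kb, chr16:26452371-26757320, with 1320, 1627 and 1111 CPM in qRG against 57.7, 200 and 303 CPM as the lowest, median and highest activated library. Its log2 difference of 2.83 (SE 0.617) had an adjusted p of 0.0606 by edgeR's quasi-likelihood test. Of equal size in the other direction was chr16:46672695-46980190, at 14.3, 13.4 and 18.8 CPM in qRG against 41.2, 92.6 and 216 CPM in activated progenitors, with an adjusted p of 0.0539 by the same edgeR test. Neither pair of groups overlapped. The other 3 were chr20:31466089-31769725 (log2 difference 1.45), chr21:32693166-32961001 (-2.30, with exons that overlap another transcript) and chr23:32793166-33106112 (-1.56).

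Over all long transcripts tested, the median log2 difference, qRG over activated progenitors, was -0.04. All transcripts tested had a median of -0.27 and shorter transcripts in the same bins one of -0.20. The difference was above 0 for 184 of 393 long transcripts (46.8%, against 35.8% of all tested and 39.5% in the same bins). The groups did not overlap, with qRG higher, for 35 (8.91%, against 3.33% and 5.08%), and with qRG lower for 7 (1.78%, against 1.89% and 2.95%). The long transcripts were thus higher in qRG relative to the other transcripts rather than on the scale of the fit. By span the median went from -0.37 under 10 kb to -0.05 from 200 to 300 kb and 0.03 at 300 kb or more. The spans just inside the threshold had differences of -0.74, -0.23 and -0.74, and those just outside 0.56, 3.37 and -0.08.

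The columns of flat level moved with this pattern. Transcripts under 10 kb lay 0.443 to 0.878 above their mean over the adult libraries in c, d and f, on the log2 scale, and 0.172 to 0.243 below it in a, b and e. Without c, d and f the median of the long transcripts was 0.19, that of all tested 0.08 and that of shorter transcripts in the same bins 0.08. The distance between long and all transcripts was then 0.11, where it was 0.23 with all columns. The share above 0 was 61.2% against 53.1% of all tested, and 84 long transcripts (21.7%, against 16.2%) were higher without overlap and 49 (12.7%, against 16.5%) lower. The median was then 0.09 under 10 kb, -0.02 from 10 to 25 kb and 0.05 from 25 to 50 kb. It was 0.17 from 50 to 100 kb and 0.19 from 100 to 200 kb. For the long transcripts it was 0.16 from 200 to 300 kb and 0.27 at 300 kb or more. The class from 200 to 300 kb was thus no higher than those from 50 to 200 kb.

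The adult difference of the long transcripts also followed their level. With all columns its median was -0.42 at a mean log2 CPM under 2, -0.11 from 2 to 4, 0.15 from 4 to 6 and 0.30 at 6 or more. The shorter transcripts were at -0.66, -0.12, 0.09 and 0.17. Without the columns of flat level the order turned, with 0.67, 0.43, -0.05 and -0.03 for the long and 0.68, -0.13, -0.33 and -0.30 for the shorter transcripts. The rise with level thus held only with c, d and f in the fit.

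The larval and adult differences of single long transcripts were close to uncorrelated. Over the 387 tested in both comparisons, which share no libraries, Pearson's r was -0.0573 and Spearman's rho -0.000272. Among the 48 long transcripts of the 394 that were higher in notch3-/- without overlap, 29 had an adult difference above 0, beside 183 of the 387 tested in both. Of all transcripts tested in adults, 35.8% did. The median adult difference of these 48 was 0.24, where that of all long transcripts tested was -0.04. The same values for all transcripts higher in notch3-/- without overlap were not computed. Of the 7 called in adults, 6 had a larval difference above 0, beside 283 of the 387 long transcripts tested (73.1%), a like share.

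Without overlap in either comparison, 9 long transcripts were higher both in notch3-/- and in qRG (2.33% of the 387 tested in both, against 0.326% of all 23013 transcripts tested in both). These shares were not tested. The single shares of the long transcripts were already above the background, at 12.1% against 3.73% in larvae and 8.91% against 3.33% in adults. The joint share was not set against a share expected from the single shares, and a link between the comparisons was not tested. Besides chr21:42299347-42504376, chr12:22651883-22904552 and chr15:6033952-6302800, described above, the 9 transcripts were chr8:36548015-37072630, chr13:14052306-14348537, chr15:23566726-23902584, chr23:5889057-6117745, chr24:17970534-18441430 and chr25:27788184-28104027. The most abundant of these 6 in larvae, chr15:23566726-23902584, was at 161, 161 and 170 CPM in notch3+/+ and 191, 179 and 262 CPM in notch3-/-. In adults it was at 60.6, 65.5 and 74.7 CPM in qRG and 11.4 to 58.0 CPM in activated progenitors. The transcript at chr15:6033952-6302800 was at 25.1, 17.9 and 26.4 CPM in notch3+/+ and 47.6, 39.6 and 28.4 CPM in notch3-/-. None of the 9 passed edgeR's quasi-likelihood test in larvae, with adjusted p-values of 0.0617 to 0.617.

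**Figure D5:**
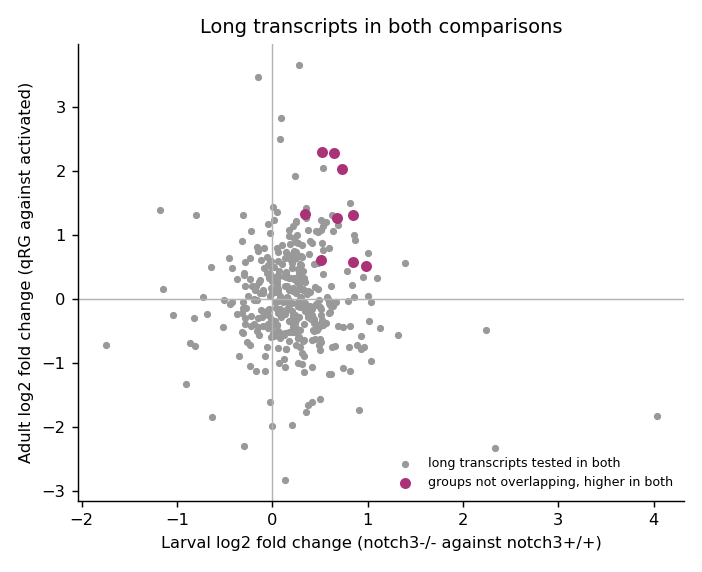
log2 fold change of the 387 long transcripts tested in both comparisons, larval (notch3-/- against notch3+/+) on the horizontal and adult (qRG against activated progenitors) on the vertical axis. Each point is 1 transcript, and the 9 coloured ones were higher without overlap in both. The points form 1 cloud shifted to the right of 0, with 283 of 387 at a larval difference above 0.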

How the data were processed

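RNA was amplified with oligo(dT) priming and sequenced in pairs, with 100 bp reads for larvae and 50 bp reads for adults. The authors used TopHat2 to align them to Zv9 and samtools 1.3.1 to keep unique alignments, and deposited raw counts on 30279 Ensembl 78 transcripts in 1 table for larvae and 1 for adults. The file headers name featureCounts 1.5.0, where the methods name HTSeq, with no option for strand or read pairs, so that each mate was counted and overlapping exons were not told apart by strand.

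Spans, introns and overlaps were computed from the exon coordinates deposited beside the counts. Each table was fitted whole with edgeR 4.0.16 in R 4.3.3 (TMM scaling, filterByExpr, quasi-likelihood test, Benjamini-Hochberg adjustment over all transcripts tested, threshold 0.05). SEs were derived from the F statistics. The larval fit held the replicate number as a block: deviations of same-numbered libraries from their group means correlated by 0.204, 0.197 and 0.317 for replicates 1, 2 and 3. The numbers come from the labels. DESeq2 1.42.0 was the alternative test. CPM used TMM-scaled library sizes, and bins were 5 classes of abundance by 5 of Length. Levels per kb were set against bins of Length alone. Values for shorter transcripts in the same bins are averages of bin medians (of bin percentages for shares), weighted by the number of long transcripts. Columns of flat level were the activated columns with a lower quartile above 1 CPM per kb, a rule chosen after seeing the data. This quartile was taken over all transcripts and on library totals without TMM scaling, and was 2.04, 4.01 and 2.64 in c, d and f. The TMM factors were 1.44, 1.97 and 1.64 in c, d and f and 0.754, 0.730 and 0.682 in a, b and e. Libraries held 17776468 to 66966289 counts, and the precision of the fits also depends on the spread between the few libraries.

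Transcripts named by identifier were, in each comparison and direction, the 2 most changed of those that passed the test, had no overlap between groups and reached a mean log2 CPM of 1. The 3 longest spans and the 3 highest larval levels per length were added by position. Other positions were chosen after their values were seen. The transcripts and their threshold were chosen with earlier results of these data known. A list of long neural genes and lists of cell type markers were not used, because the identifiers were not paired with gene names. No test was made over the long transcripts as a set. The fits were also run on simulated counts, drawn without replicate batches, a mix of cell types or columns of flat level. That run therefore does not cover these features of the data.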

Additional observations from a re-analysis of the deposited data

Results flagged for a closer look

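A check for single libraries far from the rest of their group was made for the 6 activated columns, the one group of at least 4 libraries. It covered 28 quantities and picked out 2 of them. Chance flags about 1 in 20 groups drawn from 1 population. The 6 columns hold both aRG and aNP, so this rate need not apply to them. The first is the level of the transcript at chr6:30543718-30875026, one of the 3 highest per kb in larvae, which was 118.9, 247.9 and 710.1 CPM as lowest, median and highest of the 6 columns. The gap of the highest column to the next took 0.7374 of the range. The second is the median deviation of the long transcripts from their mean over the adult libraries, which was -0.2722, -0.003159 and 0.1138 on the log2 scale as lowest, median and highest column. The gap of the lowest column, column a, took 0.6303 of the range.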

How the results depend on the processing

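The median larval log2 difference of the long transcripts, relative to all tested, was 0.215 and stayed between 0.133 and 0.273 under all 14 alternatives, including 0.211 without the replicate block. The larval count of 0 was also 0 without the block, by edgeR and by DESeq2, where edgeR's calls over all transcripts went from 105 to 1. It was 8 of 394 with no filter on low counts, where 382 of all 28653 transcripts fitted were called. With at least 10 counts it was 4 of 393, beside 246 of 26821. With DESeq2 it was 6 of 387 fitted, beside 281 of 23056. At a span of 100000 bp or more it was 2 of 1459 tested, both lower in notch3-/-, where 0.455% of all transcripts were called. Without replicates 1, 2 and 3 the larval count was 2 of 385, 0 of 386 and 5 of 383. Of all transcripts tested, 325 of 23351, 48 of 22842 and 216 of 22475 were called. The adult count of 7 of 393 (154 of 27848 over all transcripts) became 12 with DESeq2 (455) and 2 at an adjusted p under 0.01 (79). With the same 154 calls, 0.553% of all tested, it was 18 of 1508 at 100000 bp or more and 0 of 123 at 300000 bp or more. It was 4 of 286 where the largest intron took under 50% of the span. It was 19 of 387 without the columns of flat level, where 600 of all 25275 tested were called. With only the activated columns of the first name it was 38 of 391, where 1350 of 25992 were called. With only those of the second name it was 7 of 391, where 732 of 26918 were called. These settings were chosen after seeing the data. Leaving out each library gave 2 to 9 calls among 392 or 393 long transcripts. Over all transcripts, 27078 to 28369 were tested and 70 to 249 called. It gave 3, 2 and 2 (of 89, 75 and 70 calls) without qRG replicates 1, 2 and 3, and 4 (of 102) without activated column c. The adult median relative to all tested, 0.229, stayed between 0.168 and 0.302 under 21 alternatives, and was 0.111 without the columns of flat level. The ratio of long to shorter levels moved by more than its SD for CPM without division by Length (0.952 in notch3+/+, below 1, 1.11 in notch3-/-, 0.701 in qRG), at 100000 bp or more (0.935, again below 1, 1.05 and 0.775) and at 300000 bp or more (1.58 in notch3-/-, 0.974 in qRG, 0.886 in activated). The 2 transcripts named by identifier kept their direction and stayed past the threshold under all 18 alternatives. The causes of these moves were not tested. The adult column names also carry numbers from 1 to 3. Deviations of the qRG libraries correlated by -0.0181, 0.0242 and 0.176 with the mean of the activated columns of the same number, so the numbers were not taken to pair them. With each other, the 2 activated columns of numbers 1, 2 and 3 correlated by -0.706, 0.289 and 0.684. Columns of flat level enter these means, so the check cannot decide whether pools were shared. A replicate block on the numbers in the column names was added after seeing the data. It gave 8 adult calls of 393 (157 of 27848 over all transcripts) with edgeR and 14 (597 over all) with DESeq2.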
